A study of Mus musculus with 46 samples.

Results

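The change in gene expression that accompanies Pbrm1 disruption was examined in mouse tumours driven by the fusion gene SS18::SSX2. The 8 libraries whose titles give both this fusion background and Pbrm1 (hSS2;Pbrm1-fl, called Pbrm1-fl here) were compared with the 13 libraries whose titles give the background alone (controls). These 21 libraries were chosen by title, out of 46 in the series, and no measured value entered the choice. The 2 groups were fitted together with 8 Arid1a-fl and 8 Arid1b-fl libraries of the same background, which added to the estimate of the spread. Every Pbrm1-fl mouse had a number of 2000 or over, whereas the controls had numbers from all ranges, so the results against the 13 controls were checked against the 4 controls numbered 2000 or over (control replicates 1 to 4, called same-range controls).

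All of these mice carried the human fusion at Rosa26 behind a floxed stop, and controls and Pbrm1-fl mice alike received TATCre, a cell-permeable Cre protein, by limb injection at 8 days of age. In Pbrm1-fl mice the same Cre excises exon 11 of Pbrm1 in the study's numbering. The labels call these mice conditional knockouts without giving the number of floxed alleles, and the study describes Pbrm1-fl/fl tumours. Cells that Cre did not reach keep an intact Pbrm1, and which cell types these were was not measured. The study used both sexes at ages of 2 to 6 months, and each library is RNA of 1 frozen tumour, depleted of ribosomal RNA. The p-values therefore measure the spread between tumours. In such bulk samples, fewer cells of a type and less RNA per cell cannot be told apart.

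PBRM1, or polybromo, is the bromodomain-rich subunit that defines PBAF, a form of the SWI/SNF (BAF) family of complexes that move nucleosomes with energy from ATP. PBAF is built around the ATPase SMARCA4 and holds ARID2, BRD7 and PHF10, which other BAF forms lack, and it lacks SS18, so the SS18::SSX fusion enters canonical BAF and GBAF but not PBAF. PBRM1 is best known as a tumour suppressor in clear cell kidney cancer. Synovial sarcoma, the tumour that SS18::SSX drives, expresses many developmental regulators that polycomb complexes keep silent in most adult cells.

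Total counts were 10.6 to 19.6 M in the Pbrm1-fl libraries, of which replicate 1 was the shallowest, and 13.5 to 19.4 M in the controls. Levels are given as CPM, which are counts scaled to the library totals after normalisation, and comparisons between genes are not made because CPM are not per length. The libraries differed most visibly in skeletal muscle RNA. The mean log2 CPM of 30 muscle genes lay between -0.61 and 8.10 in Pbrm1-fl libraries and between 0.0092 and 9.36 in controls. With a limit of 6, 5 Pbrm1-fl libraries and 5 controls were poor in muscle, and 3 Pbrm1-fl libraries and 8 controls were rich in it. Among the same-range controls only replicate 4 was rich. No member of the 30 muscle genes passed the test, but their median log2 difference was -0.94 against all controls and -0.051 against the same-range controls, and muscle was taken up in 2 repeats. The muscle score as a covariate gave 1620 calls against all controls, 678 against the same-range controls and 517 in both, and the muscle-poor libraries alone gave 1050, 615 and 544, beside 1476, 477 and 371 as reported below. Synovial sarcoma markers such as Tle1 and Sox2 were present in both groups, with a mean log2 CPM over 11 markers of 5.97 to 7.02 in Pbrm1-fl tumours and 6.18 to 7.14 in controls. Their median log2 difference was -0.34 with 3 of 11 positive, and in muscle-poor libraries 1 was called higher and 2 lower, with group medians of 6.38 and 6.87. The macrophage list covered 1.11 to 5.42 and 2.01 to 4.92 in the same order, with 0 of 18 members called.

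Pbrm1 itself lay below every control in every Pbrm1-fl tumour. Its level was 139 CPM in Pbrm1-fl replicate 1, 110 CPM in replicate 2 and 95 to 97.7 CPM in the other 6. In the controls it had a lowest value of 171 CPM, a median of 253 CPM and a highest value of 316 CPM, and the same-range controls held 225, 171, 259 and 242 CPM. The groups did not overlap. The log2 difference was -1.27 against all controls (SE 0.088, adjusted p = 4.2e-12) and -1.12 against the same-range controls (SE 0.11, adjusted p = 1.09e-07), where p-values are from quasi-likelihood tests in edgeR, adjusted over all genes by the method of Benjamini and Hochberg. Counts are summed over the whole gene, so reads from exons outside the excised part, and from cells with no recombination, stay in the count. Of the other subunits particular to PBAF, none passed the test. Arid2 differed by -0.26 on the log2 scale (SE 0.13, adjusted p = 0.216), Phf10 by -0.13 (SE 0.076, adjusted p = 0.302) and Brd7 by 0.046 (SE 0.081, adjusted p = 0.778).

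**Figure D1:**
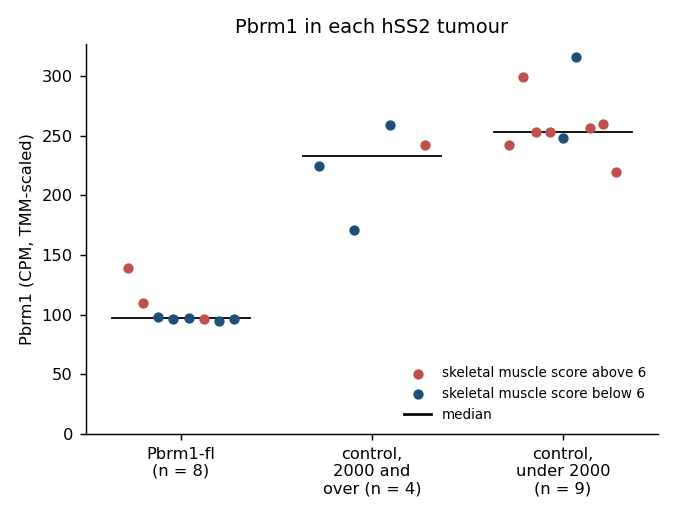
Level of Pbrm1 (CPM, linear axis from 0) in each of the 8 Pbrm1-fl tumours, the 4 controls numbered 2000 or over and the 9 controls with lower numbers, with the median of each group as a line. All Pbrm1-fl values, from 95 to 139 CPM, lie below the lowest control at 171 CPM.

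Across the transcriptome, 20083 genes had enough counts to be tested. Against all controls 1476 passed an adjusted p of 0.05 (7.35% of those tested), of which 683 were higher (3.4%) and 793 lower (3.95%) in Pbrm1-fl tumours. Against the same-range controls the numbers were 104 higher (0.518%) and 373 lower (1.86%). The same direction in both held for 77 higher and 294 lower genes, and no gene was called in opposite directions. The 2 comparisons share the Pbrm1-fl libraries and 4 controls, so this overlap is a description. In muscle-poor libraries alone, 53 of the 77 and 244 of the 294 passed the threshold in the same direction. The median log2 difference of all tested genes was -0.0042 and -0.011 in the 2 comparisons.

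The lower genes changed by more than the higher ones. The median log2 difference of the calls against all controls was 0.76 for higher and -1.36 for lower genes, and 65.3% of the lower calls but 40.4% of the higher ones changed by at least 2-fold. For 32 genes all 8 Pbrm1-fl values lay below all 13 controls, and for 25 genes all 8 lay above them. Pbrm1-fl replicate 1 was often the tumour nearest to the controls. It held the highest Pbrm1-fl value in 52.4% of the 294 lower genes, against 18.9% of all tested genes, and it was also the tumour with the most Pbrm1 RNA and the shallowest library. It came from a mouse numbered below every other Pbrm1-fl mouse and every same-range control. Left out of the fit, it raised the count to 1780 against all controls and to 661 against the same-range controls, with 365 of the 371 shared genes still called in the latter.

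The same-range count rests on few controls. It fell to 343 without control replicate 1, 230 without replicate 2 and 178 without replicate 3, and rose to 1054 without replicate 4, the muscle-rich one. Of the 371 shared genes 203, 190, 160 and 345 in that order were still called against the remaining same-range controls. A fit of only the libraries compared gave 46 same-range calls, so most of these calls depend on the other libraries in the fit. Most same-range calls given below ended in that fit, also where this is not repeated. Among them were those of Slc2a3, Dlg2 and Nme5 (adjusted p = 0.0681, 0.12 and 0.0994). Against all controls, leaving out any 1 of the 21 libraries gave 1044 to 1920 calls and kept 323 to 369 of the 371. A gene given with values below as passing against all controls did so without any 1 library, unless said otherwise. In muscle-poor libraries alone some did not pass, with adjusted p-values from 0.0525 (Igfbp4) to 0.409 (Notch2). Besides these 2 they were Satb1, Tbx2, Meis2, Zeb1, Grem1, Wnt5a, Wnt6 and Ephb3. Others were Tap1, Psmb8, Nlrx1, Ripk2, Relb, Stard4, Tm7sf2, Pex16 and Hk1. The rest were Dcc, Uchl1, Nefm, Scn3b, Cacna2d3, Nlgn2, Cfap70, Jun and Slc18a3.

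Genes called lower spanned more of the genome than the rest. Among protein-coding genes the median span from start to end was 24.6 kb for the 14928 tested, 15.8 kb for the 586 higher and 49.6 kb for the 588 lower against all controls. It was 14.5 kb for the 64 higher and 52.6 kb for the 223 lower in both comparisons. Spans over 100 kb made up 14.8% of tested, 11.3% of higher and 29.6% of lower genes. These shares carry no test, since neighbouring and overlapping genes are not independent.

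**Figure D2:**
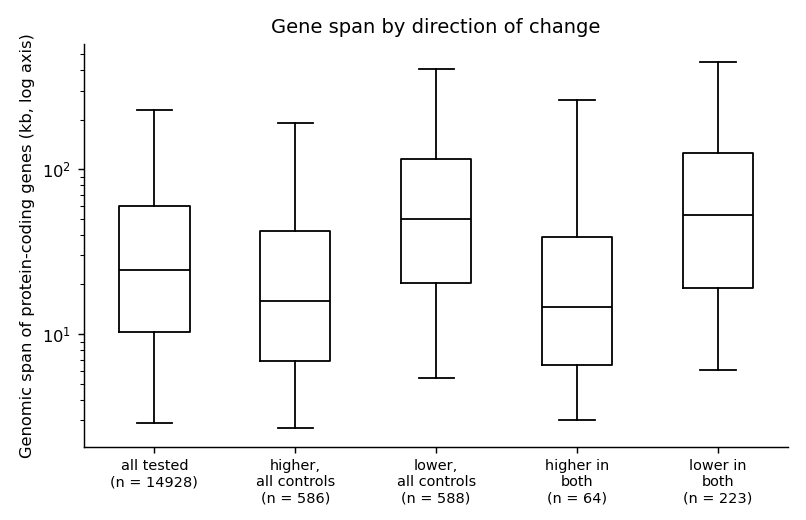
Span of protein-coding genes from start to end (kb, log axis) for all tested genes and for those higher or lower in Pbrm1-fl tumours, with boxes at the quartiles, a line at the median and whiskers from the 5th to the 95th percentile. The median of the lower genes, 49.6 kb, lies above that of all tested genes, 24.6 kb, and that of the higher genes below it at 15.8 kb, while all boxes overlap.

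To describe which functions were involved, 66 lists of genes were counted. The lists with the largest shares of higher members were those of MHC class I presentation (38.1%), cholesterol synthesis (20%), Eph receptors and ephrins (19%), peroxisomes (18.8%) and developmental transcription factors (17.9%), read against the 3.4% of all tested genes. Among lists of at least 10 genes the largest shares of lower members, read against 3.95%, were those of pericytes and smooth muscle (2 of 12), NRF2 targets (5 of 34) and laminins (2 of 15). For pericytes and smooth muscle this rests on Cspg4 and Cnn1, 1 of which was lost on leaving out any of 8 libraries, and neither passed against the same-range controls. Some lists held no call or nearly none. DNA replication (39 genes), mitosis (35), cytosolic ribosomal proteins (78), ribosome biogenesis (35), fibrillar and network collagens (31) and imprinted genes (27) had no gene past the threshold in the edgeR test, where 2, 0, 0, 2, 7 and 5 had an unadjusted p under 0.05. Among all 20083 tested genes, 4490 had an unadjusted p under 0.05. For mitosis, 34 of 35 genes had a positive log2 difference against all controls with a median of 0.31, but 24 of 35 with a median of 0.041 against the same-range controls.

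**Figure D3:**
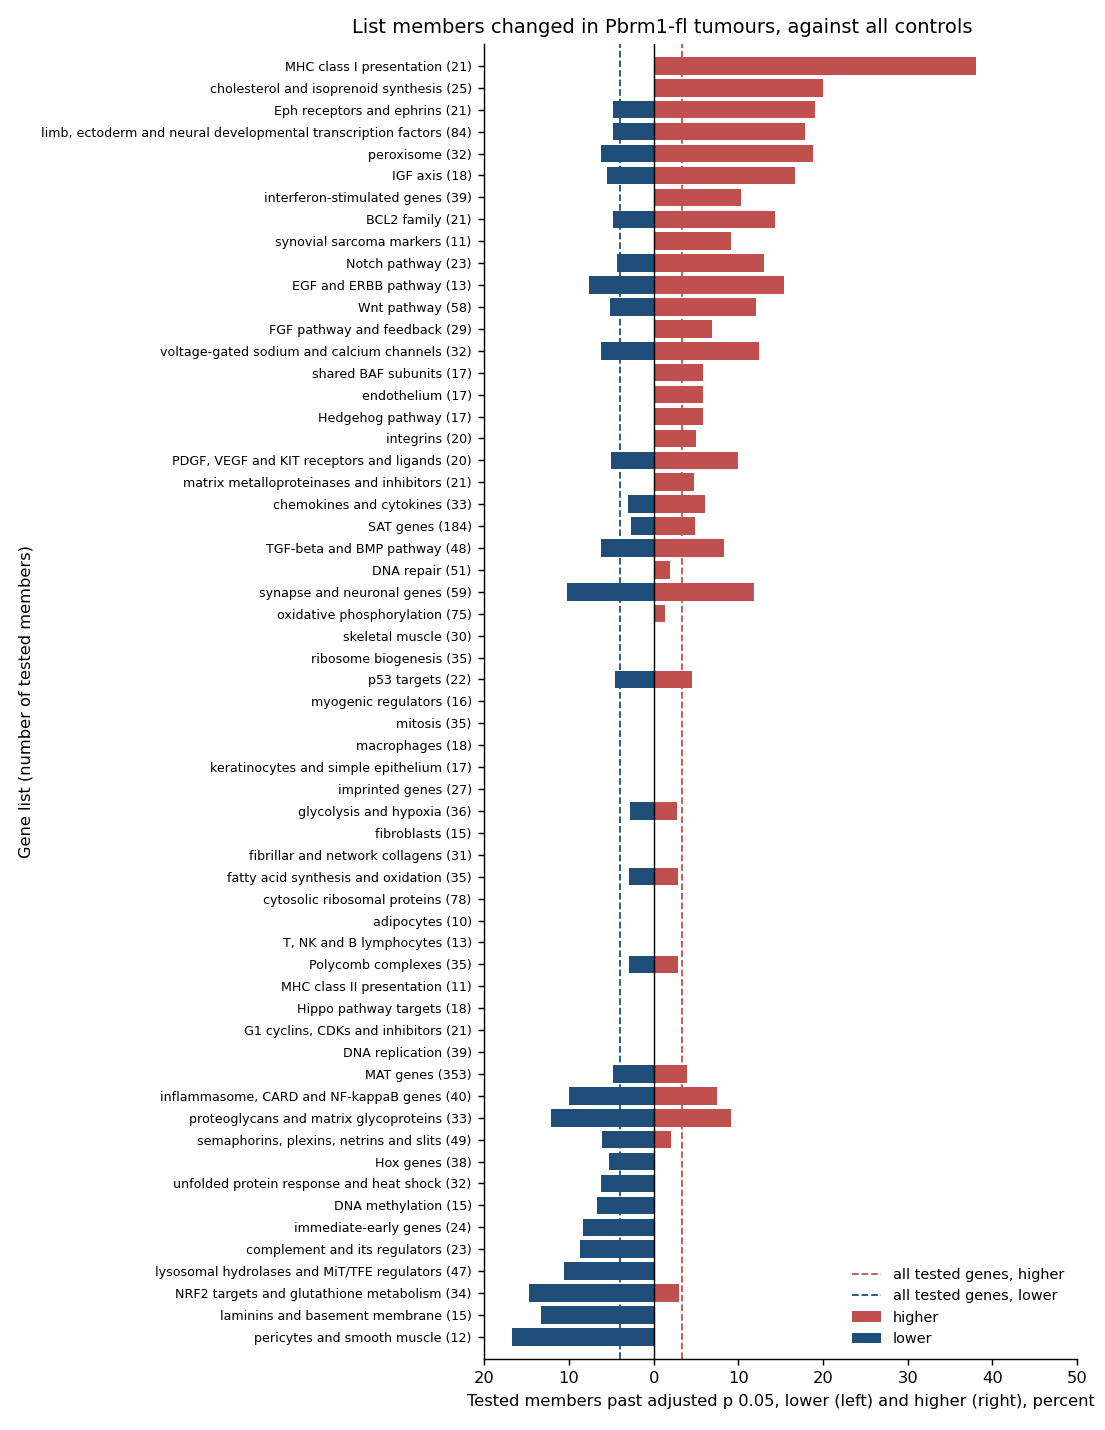
Share of each list's tested members (percent, number of members in parentheses) past an adjusted p of 0.05 against all controls, lower to the left and higher to the right, for lists with at least 10 tested genes. Dashed lines mark the 3.4% and 3.95% of all tested genes, and the bar of MHC class I presentation reaches 38.1%.

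Developmental transcription factors of the limb, the ectoderm and the nervous system, counted as 1 list, stood among the higher genes. Of 84 tested factors 15 were higher and 4 lower against all controls, with a median log2 difference of 0.41, and against the same-range controls 6 were higher and none lower, with a median of 0.74. In muscle-poor libraries 10 were higher and 1 lower. The mean log2 CPM over the list was 4.07 to 4.66 in Pbrm1-fl tumours and 3.64 to 4.39 in all controls. It was 3.64 to 3.89 in the same-range controls, which did not overlap the Pbrm1-fl range. The members called higher were Msx1, Twist1, Tbr1, Foxe1, Barx1, Satb1, Pax9, Tbx2, Zeb2, Msx2, Isl1, Dlx3, Nkx2-5, Tbx5 and Pax1. The count of higher members ranged from 9, without control replicate 9, to 17 when 1 library was left out, and that of lower members from 2 to 7.

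Msx1, a homeobox factor of limb bud and craniofacial mesenchyme, had a lowest value of 182, a median of 353 and a highest value of 880 CPM in Pbrm1-fl tumours. The controls covered 48.7, 90.5 and 226 CPM in the same order, and the same-range controls held 226, 48.7, 90.5 and 126 CPM. Pbrm1-fl tumours were above the control median in 8 of 8 cases and above every control in 6. The log2 difference was 1.88 against all controls (SE 0.33, adjusted p = 0.00049) and 1.80 against the same-range controls (SE 0.50, adjusted p = 0.0451). The latter call ended on leaving out any of 8 of the 12 libraries, with adjusted p-values up to 0.207.

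Twist1, a bHLH factor of mesenchyme and of epithelial-to-mesenchymal change, ran from 129 over 190 to 520 CPM in Pbrm1-fl tumours and from 60.5 over 93 to 148 CPM in controls. The same-range controls held 60.5, 61.6, 63.5 and 127 CPM, all below the Pbrm1-fl tumours. Its log2 difference was 1.19 (SE 0.23, adjusted p = 0.00109) and 1.59 against the same-range controls (SE 0.33, adjusted p = 0.00685), and neither call ended on leaving out a library. The same-range call ended in a fit of only the libraries compared (adjusted p = 0.126). Twist1 was also counted among the synovial sarcoma markers, of which it was the only member called.

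Larger ratios were found at factors with low levels in controls, among them Tbx20 and Hand1, which were not members of the list. Tbx20, a T-box factor of heart muscle, had 56.4, 157 and 233 CPM as lowest, median and highest Pbrm1-fl values and 0.295, 8.59 and 54.8 CPM in controls. These groups did not overlap (log2 difference 3.19, SE 0.85, adjusted p = 0.0182), while the test against the same-range controls gave 4.08 (SE 1.39, adjusted p = 0.122). The T-box family as a whole held 3 higher (Tbx2, Tbx20, Tbx5) and no lower genes of 12 tested, with a median log2 difference of 0.96. Tbx2, which represses transcription in heart and limb, had medians of 380 and 189 CPM (log2 difference 1.08, SE 0.26, adjusted p = 0.00995). The same-range controls gave 1.12 (SE 0.40, adjusted p = 0.139).

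Hand1, a bHLH factor of heart and limb, was at 0.904 to 6.84 CPM in Pbrm1-fl tumours, at 0 in most controls and at 0.554 CPM in the highest control, so that no values overlapped. It was called in both comparisons (adjusted p = 0.000178 and 0.00545), and its ratio is not given because so few control reads fell on it. Pax9, a paired-box factor of the face and vertebral column, had a Pbrm1-fl median of 27.1 CPM and a range of 0.602 to 208 CPM against a control median of 0.865 CPM and a highest control of 32.1 CPM. Its ranges overlapped, with 7 of 8 Pbrm1-fl tumours above the control median. The log2 difference was 3.79 (SE 0.92, adjusted p = 0.00914) and 6.29 against the same-range controls (SE 1.56, adjusted p = 0.0241), where the call ended without control replicate 1, 2 or 3. Without control replicate 5 the difference against all controls was 4.81. Tbr1, a T-box factor of cortical neurons, had medians of 1.26 and 0.254 CPM (log2 difference 2.37, SE 0.46, adjusted p = 0.00132), with 2.71 against the same-range controls (SE 0.74, adjusted p = 0.043), a call that ended on leaving out any of 7 libraries. Barx1, a homeobox factor of jaw and stomach mesenchyme, had medians of 30.6 and 2.25 CPM (log2 difference 3.05, SE 0.71, adjusted p = 0.00688), with an adjusted p of 0.122 against the same-range controls.

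Other factors of the same kind stood among the genes called in both comparisons and were picked after their values were seen. Dlx4, a distal-less homeobox factor, had medians of 9.55 and 0.64 CPM with 7 of 8 Pbrm1-fl tumours above every control (log2 difference 2.72, SE 0.54, adjusted p = 0.0016). Tfap2c, an AP-2 factor of neural crest and epidermis, had medians of 131 and 64.9 CPM with 5 of 8 above every control (log2 difference 1.07, SE 0.23, adjusted p = 0.00298). Against the same-range controls Dlx4 and Tfap2c had adjusted p-values of 0.0338 and 0.0411, which did not hold when single libraries were left out (up to 0.142 and 0.171).

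The chromatin organiser Satb1 was higher as well, with 82, 143 and 301 CPM against 23.9, 61.1 and 104 CPM (log2 difference 1.39, SE 0.34, adjusted p = 0.00914). The adjusted p was 0.154 against the same-range controls. In an interval of chromosome 17 at its locus, 6 of 10 tested genes, these 6 all noncoding, were higher in both comparisons. Their reads may not be separable from those of Satb1, since the strand setting of the counting is not given. Pax3, a neural crest and muscle progenitor factor, was the reverse case. Its Pbrm1-fl values of 159 to 336 CPM all lay above the same-range controls, at 99.2, 119, 88.1 and 61.2 CPM (log2 difference 1.28, SE 0.28, adjusted p = 0.0091), but against all controls it did not pass (0.64, SE 0.21, adjusted p = 0.0558). Lower members of the list were Sox11, Meis2, Zeb1 and Sox6. Meis2, a homeobox cofactor, had medians of 102 and 160 CPM (log2 difference -0.69, SE 0.19, adjusted p = 0.0238), and Zeb1, a repressor of epithelial genes, had 99.1 and 135 CPM (log2 difference -0.55, SE 0.16, adjusted p = 0.0263). These calls ended without Pbrm1-fl replicate 2 for Meis2 (adjusted p = 0.0554) and without replicate 7 for Zeb1 (adjusted p = 0.0683). No factor of the list was lower against the same-range controls. The 38 tested Hox genes held 2 lower calls (Hoxa6 and Hoxa5) against all controls and none against the same-range controls, and the former ran from 0 without Pbrm1-fl replicate 2 or 4 to 5 without control replicate 3 or 10.

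**Figure D4:**
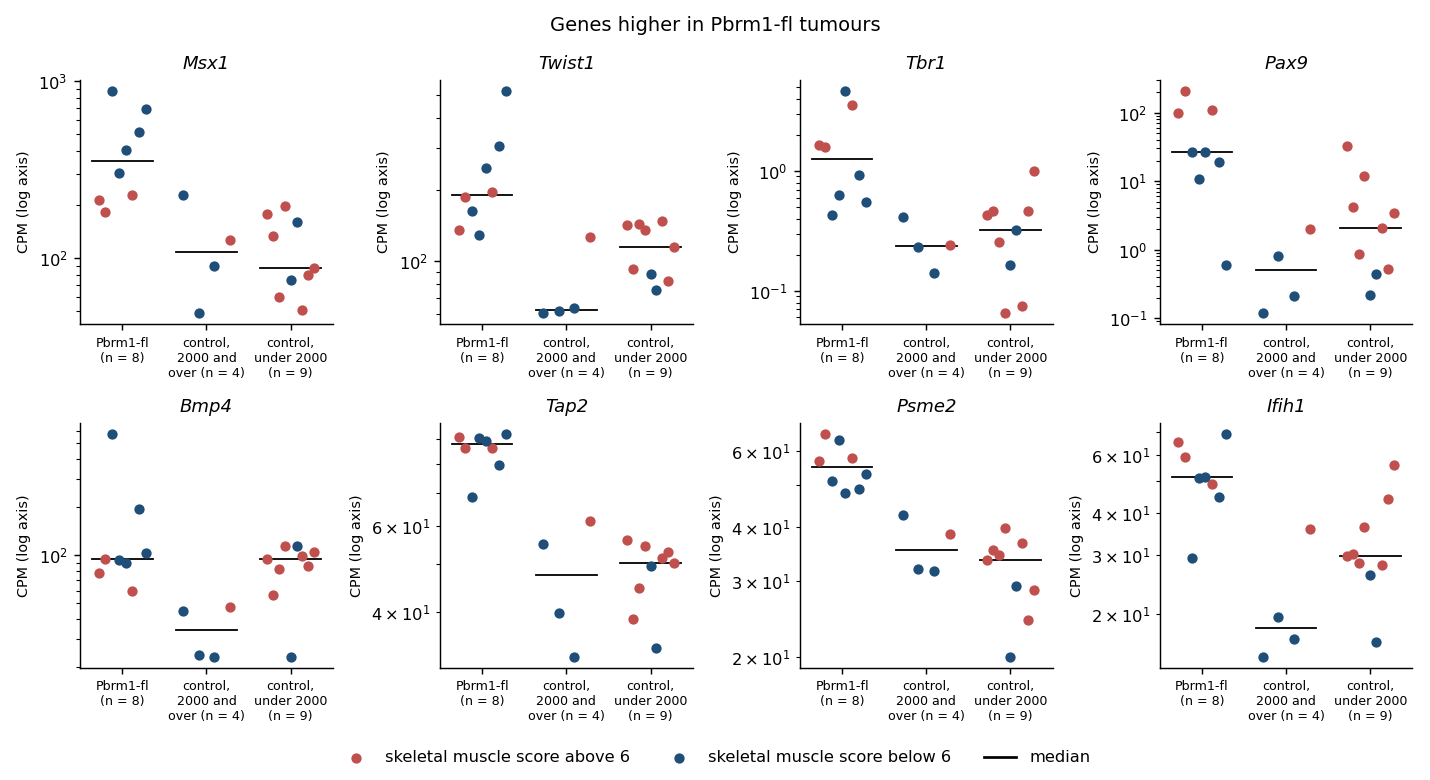
Levels (CPM, log axes) of 8 genes higher in Pbrm1-fl tumours, namely Msx1, Twist1, Tbr1, Pax9, Bmp4, Tap2, Psme2 and Ifih1, in the 8 Pbrm1-fl tumours, the 4 controls numbered 2000 or over and the 9 other controls, with medians as lines and colour showing a skeletal muscle score above or below 6. For Tap2 the lowest Pbrm1-fl value of 68.5 CPM lies above the highest control at 61.4 CPM, whereas for Pax9 and Bmp4 the groups overlap.

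Among signalling genes, those of BMPs, Wnts, IGFs and ephrins held calls in both directions. In the TGF-beta and BMP list of 48 genes, 4 were higher (Bmp7, Grem1, Bmp4, Nog) and 3 lower (Chrdl1, Bmp2, Gdf5) against all controls. The same-range comparison gave 5 higher and 2 lower. The median log2 difference of the list was -0.058 and 0.065, near that of all genes. Against all controls the higher count fell to 2 without Pbrm1-fl replicate 3 or 7 or control replicate 9. The lower count fell to 1 without Pbrm1-fl replicate 2, 3, 4, 5 or 8 or control replicate 11, and rose to 5 without control replicate 1. Bmp7, a ligand of limb, kidney and eye, had 271, 425 and 831 CPM in Pbrm1-fl tumours and 141, 234 and 340 CPM in controls, with 340, 205, 212 and 141 CPM in the same-range controls. Of the 8 tumours 6 were above every control. Bmp7 differed by 0.99 on the log2 scale (SE 0.17, adjusted p = 0.000355) and 1.06 (SE 0.25, adjusted p = 0.0155), the latter ending without control replicate 2 (adjusted p = 0.0666) or 3 (adjusted p = 0.0703).

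Bmp4, its relative, had medians of 94.1 and 82.3 CPM, and the highest Pbrm1-fl value was 572 CPM in a single tumour, replicate 3. Against all controls the log2 difference was 1.20 (SE 0.35, adjusted p = 0.0287), which ended without Pbrm1-fl replicate 3 (adjusted p = 0.312), replicate 7 or control replicate 9. All same-range controls, at 44.9, 23.7, 23.3 and 47.3 CPM, lay below the lowest Pbrm1-fl value of 60.2 CPM (log2 difference 2.21, SE 0.50, adjusted p = 0.0128), a call that ended without control replicate 2 (adjusted p = 0.0656) or 3 (adjusted p = 0.0722). A pair of secreted BMP antagonists moved in opposite directions. Grem1 had medians of 95.1 and 29.1 CPM (log2 difference 1.64, SE 0.41, adjusted p = 0.0113), and Chrdl1 had 19.1 and 84.6 CPM (log2 difference -2.76, SE 0.52, adjusted p = 0.000961). Both also passed against the same-range controls, at adjusted p-values of 0.0495 and 0.0407, but not with single libraries left out (up to 0.204 and 0.636).

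In the Wnt list of 58 genes 7 were higher (Dkk2, Wnt6, Fzd6, Wnt5a, Sp5, Rspo1, Wnt10a) and 3 lower (Wnt5b, Fzd9, Fzd5) against all controls, and 1 was higher and 3 lower against the same-range controls. The 3 lower genes were called in both, although for Fzd9 the same-range call ended on leaving out any of 9 libraries. Wnt5a, a ligand that acts mostly without beta-catenin, had 535, 1219 and 2257 CPM in Pbrm1-fl tumours and 287, 547 and 1149 CPM in controls (log2 difference 1.15, SE 0.31, adjusted p = 0.0202), a call that ended without Pbrm1-fl replicate 8 (adjusted p = 0.0639). Its close relative Wnt5b went the other way, with 0.777, 1.18 and 1.77 CPM against 1.19, 2.55 and 3.72 CPM (log2 difference -1.03, SE 0.25, adjusted p = 0.0105, and -1.43 against the same-range controls, SE 0.31, adjusted p = 0.00896). Wnt6, an ectodermal ligand, had medians of 80.1 and 31 CPM (log2 difference 1.26, SE 0.29, adjusted p = 0.00597). Dkk2, a secreted modulator of the LRP coreceptors, had medians of 58.3 and 4.51 CPM (log2 difference 3.09, SE 0.68, adjusted p = 0.00405). Wnt5a, Wnt6 and Dkk2 had adjusted p-values of 0.216, 0.297 and 0.213 against the same-range controls. Against all controls in muscle-poor libraries, Wnt5a and Wnt6 had adjusted p-values of 0.181 and 0.18.

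The receptor Fzd5 was at 10.6 to 20.5 CPM in Pbrm1-fl tumours and at 51.1, 123, 81.6 and 18.4 CPM in the same-range controls, of which only the muscle-rich replicate 4 fell within the Pbrm1-fl range. The log2 difference there was -2.19 (SE 0.40, adjusted p = 0.00148), and it was -1.27 against all controls (SE 0.39, adjusted p = 0.038), a call that ended on leaving out any of 7 libraries (adjusted p up to 0.0743). Fzd9 had medians of 0.937 and 2.47 CPM (log2 difference -1.69, SE 0.46, adjusted p = 0.0199), with -2.03 against the same-range controls (SE 0.57, adjusted p = 0.0474, up to 0.264 with a library left out).

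Genes of the insulin-like growth factor axis changed at the level of RNA-binding proteins, binding proteins and adaptors. Igf2bp1 and Igf2bp3, fetal RNA-binding proteins that hold IGF2 and other transcripts, had medians of 3.03 against 0.554 CPM and 3.57 against 0.386 CPM. Their log2 differences were 3.94 (SE 0.63, adjusted p = 0.000215) and 2.32 (SE 0.61, adjusted p = 0.017). Pbrm1-fl replicate 3 alone held 53.4 CPM of Igf2bp1, beside a next value of 6.85 CPM, and without it the difference was 2.37. Igfbp4, a secreted binding protein, had 83, 792 and 3679 CPM against 83.1, 161 and 796 CPM (log2 difference 2.03, SE 0.45, adjusted p = 0.00487, with a log2 difference of 1.41 without Pbrm1-fl replicate 4). These 3 did not pass against the same-range controls, with adjusted p-values of 0.0581, 0.176 and 0.123. Irs1, the adaptor below the insulin and IGF1 receptors, fell instead, with 23, 72.7 and 170 CPM against 97.5, 172 and 417 CPM and 7 of 8 Pbrm1-fl tumours below every control. Its log2 difference was -1.33 (SE 0.34, adjusted p = 0.0126) and -1.75 against the same-range controls (SE 0.41, adjusted p = 0.0178), where the call ended without control replicate 2 or 3.

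Ephrin signalling held 4 higher genes (Efnb2, Epha10, Ephb3, Ephb2) and 1 lower (Efnb3) of 21. The membrane ligand Efnb2 had medians of 256 and 130 CPM (log2 difference 0.95, SE 0.23, adjusted p = 0.00787), and its receptor Ephb3 had 217 and 145 CPM (log2 difference 0.62, SE 0.17, adjusted p = 0.0226). Their adjusted p-values against the same-range controls were 0.139 and 0.117. The related ligand Efnb3 had 7.79 and 18.3 CPM (log2 difference -1.43, SE 0.37, adjusted p = 0.0148) and was the only one also called against the same-range controls (-1.90, SE 0.44, adjusted p = 0.0153), except without control replicate 1 (adjusted p = 0.107). In the Notch list of 23 genes, Notch2, Hes1 and Jag2 were higher and Maml2, a coactivator, lower (medians 31.9 and 60.4 CPM, log2 difference -0.85, SE 0.17, adjusted p = 0.00183). The receptor Notch2 had medians of 683 and 517 CPM (log2 difference 0.62, SE 0.16, adjusted p = 0.0124), which ended without Pbrm1-fl replicate 3 (adjusted p = 0.0871), and none of the 4 passed against the same-range controls. The 3 higher calls fell to 0 without Pbrm1-fl replicate 3 and to 1 without Pbrm1-fl replicate 5, 7 or 8 or control replicate 9 or 13.

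MHC class I molecules display fragments of intracellular proteins to T cells. Of 21 tested genes that encode them or load their peptides, 8 were higher against all controls and none was lower, and 20 of 21 had a positive log2 difference, with a median of 0.76. Against the same-range controls 3 passed and the median was 0.82, and in muscle-poor libraries 5 passed with a median of 0.99. The mean log2 CPM over the list was 5.56 to 6.76 in Pbrm1-fl tumours, 4.55 to 6.11 in all controls and 4.70 to 6.11 in the same-range controls. Lists of immune cells held no call in the edgeR test, with 0 of 18 for macrophages, 0 of 13 for lymphocytes, 0 of 11 for MHC class II and 0 of 6 for neutrophils and mast cells. An unadjusted p under 0.05 was held by 4490 of 20083 tested genes and by 0, 2, 0 and 4 members of these lists. Their median log2 differences were 0.38, 0.30, 0.41 and -1.76 against all controls. In muscle-poor libraries they were -0.11, 0.90, 1.15 and -2.47, so that MHC class II and lymphocyte genes differed there by about as much as class I genes. The part of such cells in the class I result was not tested.

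Tap2, which with Tap1 forms the transporter that carries peptides into the endoplasmic reticulum, had 68.5, 88 and 92.3 CPM in Pbrm1-fl tumours and 32.4, 50.4 and 61.4 CPM in controls. The groups did not overlap (log2 difference 0.84, SE 0.15, adjusted p = 0.000566). Against the same-range controls, at 55.1, 39.8, 32.4 and 61.4 CPM, the log2 difference was 0.86 (SE 0.22, adjusted p = 0.0303), and it was no longer called without control replicate 2 (adjusted p = 0.138) or 3 (adjusted p = 0.173). Tap1 had medians of 80.5 and 45.1 CPM (log2 difference 0.83, SE 0.19, adjusted p = 0.00559). The nonclassical class I gene H2-T22 had medians of 84.9 and 47.9 CPM (log2 difference 0.76, SE 0.14, adjusted p = 0.00106), and H2-Q4 had 134 and 50.3 CPM (log2 difference 1.24, SE 0.34, adjusted p = 0.0214). H2-T22 also passed against the same-range controls (adjusted p = 0.0298), except without Pbrm1-fl replicate 2 or control replicate 1, 2 or 3, and Tap1 and H2-Q4 did not (both adjusted p = 0.138). Genes of the H2 family are close copies of each other, so their counts are uncertain.

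The immunoproteasome, which cuts the peptides, was higher in its 3 catalytic subunits against all controls. Psmb8 had medians of 26.6 and 10.6 CPM (log2 difference 1.45, SE 0.34, adjusted p = 0.00772) and Psmb9 had 22.9 and 10 CPM (log2 difference 1.20, SE 0.26, adjusted p = 0.00327), and Psmb10 was the only other of 10 Psmb genes called. None passed against the same-range controls, with adjusted p-values of 0.0974 for Psmb8, 0.113 for Psmb9 and 0.584 for Psmb10, and Psmb8 did not pass in muscle-poor libraries (adjusted p = 0.0757). Psme1 and Psme2, which encode the PA28 cap of the immunoproteasome and were picked after their values were seen, lie beside each other on chromosome 14 and passed in both comparisons. Psme2 had 47.9, 55 and 65.7 CPM against 20, 33.5 and 42.6 CPM, with no overlap (log2 difference 0.76, SE 0.13, adjusted p = 0.000346). Psme1 had 63.2, 73.3 and 89.5 CPM against 25.3, 45 and 69.6 CPM (log2 difference 0.71, SE 0.13, adjusted p = 0.000607). Their adjusted p-values against the same-range controls were 0.0451 and 0.033, which rose to 0.192 and 0.204 at most when a library was left out.

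Of 39 interferon-stimulated genes 4 were higher (Ifih1, Ifi35, Bst2, Isg15) and none lower against all controls, 1 was higher against the same-range controls and 8 in muscle-poor libraries, with median log2 differences of 0.29, 0.59 and 0.49. The count of 4 fell to 1 without control replicate 9, to 2 without Pbrm1-fl replicate 1, 2 or 3 or control replicate 2 or 3, and reached 5 at most. Ifih1, a sensor of double-stranded RNA, had 29.3, 51.3 and 69.1 CPM against 14.9, 28.4 and 55.8 CPM (log2 difference 0.83, SE 0.22, adjusted p = 0.0153). Its same-range controls held 14.9, 19.6, 16.8 and 36 CPM (log2 difference 1.26, SE 0.31, adjusted p = 0.0213), with the call ending without control replicate 1, 2 or 3. Ifi35 had 30.7, 32.8 and 37.2 CPM against 11.8, 24.5 and 30.1 CPM, with no overlap. Its log2 difference was small (0.54, SE 0.16, adjusted p = 0.0267), and the call ended on leaving out any of 4 libraries (adjusted p up to 0.0544). Nlrx1, a mitochondrial regulator of antiviral signalling from the inflammasome list, had medians of 55.7 and 39.1 CPM (log2 difference 0.50, SE 0.12, adjusted p = 0.00927). Ifi35 and Nlrx1 had adjusted p-values of 0.104 and 0.063 against the same-range controls.

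The promoters of the called class I and interferon-stimulated genes were read from RefSeq (GRCm38.p6, 250 bases before to 50 after the start) for the interferon response element, here the letters GAAA, any 2 bases and GAAA again, on either strand. The element was in 3.99% of the 27018 genes with a promoter in that table. It was in H2-T22 of the 7 higher class I genes that matched the table, and in 3 of the 4 higher interferon-stimulated genes (Ifih1, Bst2, Isg15). A match is only a run of letters, and this count is a description. The windows of H2-T22 (chr17:36042693-36042992, minus strand), of Ifih1 (chr2:62646206-62646505, minus strand) and of Tap1 (chr17:34187306-34187605, plus strand) are shown 5′ to 3′ with the element in capitals. Tap1 is shown because 275 of its bases are also in the window of Psmb9, which is read in the opposite direction, and it has no match.
H2-T22: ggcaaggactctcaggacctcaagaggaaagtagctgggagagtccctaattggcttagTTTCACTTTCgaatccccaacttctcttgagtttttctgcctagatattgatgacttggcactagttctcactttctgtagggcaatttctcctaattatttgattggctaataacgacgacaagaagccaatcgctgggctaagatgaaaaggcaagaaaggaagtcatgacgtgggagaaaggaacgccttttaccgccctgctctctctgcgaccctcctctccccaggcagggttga
Ifih1: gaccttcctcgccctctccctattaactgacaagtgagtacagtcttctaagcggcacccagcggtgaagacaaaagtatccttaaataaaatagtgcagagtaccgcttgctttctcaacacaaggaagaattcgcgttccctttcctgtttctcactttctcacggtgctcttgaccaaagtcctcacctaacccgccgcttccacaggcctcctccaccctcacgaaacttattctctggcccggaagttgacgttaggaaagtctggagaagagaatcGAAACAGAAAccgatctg
Tap1: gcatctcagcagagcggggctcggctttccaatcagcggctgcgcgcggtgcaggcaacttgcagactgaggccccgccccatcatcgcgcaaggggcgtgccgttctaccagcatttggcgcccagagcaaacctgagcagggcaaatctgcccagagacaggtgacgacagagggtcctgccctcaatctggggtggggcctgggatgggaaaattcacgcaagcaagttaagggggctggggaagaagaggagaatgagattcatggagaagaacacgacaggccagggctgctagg

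Metabolic lists changed in part. In cholesterol and isoprenoid synthesis 5 of 25 genes were higher (Stard4, Tm7sf2, Pmvk, Cyp51, Lss) and none lower, 23 of 25 had a positive log2 difference, and the median was 0.36. Stard4, which carries cholesterol between membranes, had medians of 49.7 and 23.1 CPM (log2 difference 0.93, SE 0.22, adjusted p = 0.00837) and was the only one also called against the same-range controls (1.29, SE 0.33, adjusted p = 0.0281, ending without Pbrm1-fl replicate 4 or control replicate 1 or 3). Tm7sf2, a sterol reductase, had medians of 22.7 and 15.6 CPM (log2 difference 0.98, SE 0.24, adjusted p = 0.011, and adjusted p = 0.21 against the same-range controls). Muscle-poor libraries alone gave 1 call in this list, and 3 were left without Pbrm1-fl replicate 3, 4 or 8 or control replicate 11.

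Peroxisomal genes gave 6 higher and 2 lower of 32 with small differences. Pex16, which inserts peroxisomal membrane proteins, had 14.2, 15.4 and 18.1 CPM against 8.29, 11.8 and 13.4 CPM, with no overlap (log2 difference 0.44, SE 0.11, adjusted p = 0.013, and adjusted p = 0.24 against the same-range controls). Pex13, a part of the import pore, was lower, with 25.4, 27.8 and 30.8 CPM against 28.4, 32.6 and 38.3 CPM (log2 difference -0.24, SE 0.057, adjusted p = 0.00758). The higher calls numbered 2 to 8 when 1 library was left out, with 2 without Pbrm1-fl replicate 2, 4, 7 or 8, and 0 in muscle-poor libraries. Pex13 was also lower against the same-range controls (-0.30, SE 0.070, adjusted p = 0.0152), except without control replicate 1 (adjusted p = 0.0824) or 2 (adjusted p = 0.0536).

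Of 34 genes of the NRF2 response and glutathione metabolism, 1 was higher and 5 lower (Mgst1, Nqo1, Nfe2l2, Gstm1, Gsto1). The lower count fell to 3 without Pbrm1-fl replicate 3, 4 or 7. Nqo1, a quinone reductase, had 1.91, 3.13 and 7.78 CPM against 5.17, 8.19 and 15 CPM (log2 difference -1.07, SE 0.28, adjusted p = 0.0138, and adjusted p = 0.0627 against the same-range controls). Mgst1, a membrane glutathione transferase, had medians of 4.57 and 11.6 CPM (log2 difference -1.76, SE 0.37, adjusted p = 0.00272), and Gss, the enzyme that completes glutathione, had 46.3 and 30.9 CPM (log2 difference 0.62, SE 0.11, adjusted p = 0.000365). Both passed against the same-range controls (adjusted p = 0.0438 and 0.0407), and both lost that call in most repeats with 1 library left out (up to 0.123 and 0.136). The mean log2 CPM over the list was 3.60 to 4.22 in Pbrm1-fl tumours and 4.02 to 4.46 in controls.

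Lysosomal hydrolases held 5 lower genes (Glb1l, Ctsk, Gusb, Glb1l2, Ctsl) and no higher gene of 47, and 3 without Pbrm1-fl replicate 4, 5 or 7. Ctsk, a collagen-cutting cathepsin, had 2.21, 10.7 and 83 CPM against 5.67, 90.3 and 172 CPM (log2 difference -2.32, SE 0.55, adjusted p = 0.00772, with a log2 difference of -3.28 without Pbrm1-fl replicate 1). Gusb, beta-glucuronidase, had medians of 30.7 and 63 CPM (log2 difference -0.68, SE 0.19, adjusted p = 0.0205), which ended without Pbrm1-fl replicate 7 (adjusted p = 0.0545). Ctsk and Gusb had adjusted p-values of 0.191 and 0.154 against the same-range controls. In the list of glycolysis and hypoxia 2 genes of 36 were called (5.56%), fewer than the 7.35% of all tested genes. They moved in opposite directions. The neuronal glucose transporter Slc2a3 had 0.753, 4.07 and 10.2 CPM against 9.43, 16.6 and 43.7 CPM, with 7 of 8 Pbrm1-fl tumours below every control, and a log2 difference of -2.41 (SE 0.55, adjusted p = 0.00564) or -2.88 against the same-range controls (SE 0.65, adjusted p = 0.0126). Hexokinase Hk1 had medians of 200 and 139 CPM (log2 difference 0.52, SE 0.10, adjusted p = 0.0018, and adjusted p = 0.148 against the same-range controls). Oxidative phosphorylation held 1 call in 75 genes.

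In the axon guidance list of semaphorins, plexins, netrins and slits, 3 of 49 genes were lower in both comparisons (Srgap3, Dcc, Sema5a). This is to be read against the 294 of 20083 tested genes lower in both, and Sema6b was higher against all controls. The lower count rose to 5 without control replicate 4 or 5. Srgap3, which remodels actin below the Slit receptor, had 0.979, 5.41 and 15.1 CPM against 11.8, 67.7 and 179 CPM. Of the Pbrm1-fl tumours 7 lay below every control, and only replicate 1 overlapped control replicate 4, the lowest of the same-range values of 179, 113, 111 and 11.8 CPM. The log2 difference was -3.69 (SE 0.45, adjusted p = 3.35e-06) and -4.09 (SE 0.51, adjusted p = 1.92e-05), and neither call ended on leaving out a library. Sema5a, a semaphorin with thrombospondin repeats, had 26.6, 63.1 and 214 CPM against 43.6, 297 and 580 CPM (log2 difference -1.67, SE 0.40, adjusted p = 0.00868). Dcc, the netrin receptor, had medians of 0.149 and 1.17 CPM (log2 difference -3.42, SE 0.76, adjusted p = 0.00477, with a log2 difference of -4.21 without Pbrm1-fl replicate 7). Their same-range adjusted p-values of 0.0281 and 0.0204 rose to 0.118 for Sema5a and to 0.528 for Dcc when a library was left out, for Dcc without control replicate 1 alone.

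Synapse and neuronal genes moved both ways, with 7 higher and 6 lower of 59 and a median log2 difference of -0.062. Dlg2, a scaffold of the postsynaptic density, had 0.525, 1.3 and 4.38 CPM against 1.4, 11.8 and 29.3 CPM (log2 difference -3.11, SE 0.45, adjusted p = 7.56e-05). It was also lower against the same-range controls (-2.74, SE 0.53, adjusted p = 0.00296), except without control replicate 1 (adjusted p = 0.123). Uchl1, a neuronal ubiquitin hydrolase, had medians of 25.8 and 49.7 CPM (log2 difference -1.50, SE 0.41, adjusted p = 0.0214, and adjusted p = 0.024 against the same-range controls, ending without control replicate 1 or 2). Gria1, a glutamate receptor subunit, had 691 CPM in control replicate 3 beside a control median of 3.72 CPM, and its log2 difference of -5.62 (SE 1.38, adjusted p = 0.0102) was -2.42 and not called without that library (adjusted p = 0.0684). Neurofilament Nefm was higher, with 0.251, 1.2 and 4.96 CPM against 0, 0.102 and 0.295 CPM (log2 difference 3.63, SE 0.57, adjusted p = 0.000179), as was the synaptic adhesion gene Nlgn2, with medians of 460 and 290 CPM (log2 difference 0.51, SE 0.12, adjusted p = 0.00869). Nefm also passed against the same-range controls (adjusted p = 0.0448), with the call ending on leaving out any of 9 libraries, and Nlgn2 did not (adjusted p = 0.402).

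Of 32 subunits of voltage-gated sodium and calcium channels, 4 were higher (Scn8a, Scn3b, Cacna2d3, Cacna1g) and 2 lower (Scn2b, Cacng7). Higher calls rose to 7 without control replicate 1, and 1 lower call was lost on leaving out most single libraries. Scn8a, a pore-forming sodium channel subunit, had 5.8, 39.6 and 139 CPM against 0.509, 2.7 and 9.56 CPM, with 7 of 8 Pbrm1-fl tumours above every control (log2 difference 4.05, SE 0.63, adjusted p = 0.000144, and 3.36 against the same-range controls, SE 0.97, adjusted p = 0.057). The 2 accessory beta subunits that changed went in opposite directions. Scn3b had medians of 13.3 and 5.26 CPM (log2 difference 1.16, SE 0.23, adjusted p = 0.00153), and Scn2b had 0.793 and 5.41 CPM with 7 of 8 below every control (log2 difference -2.41, SE 0.57, adjusted p = 0.00772, with a log2 difference of -3.10 without Pbrm1-fl replicate 1). Against the same-range controls their adjusted p-values were 0.075 and 0.0297, the latter call ending on leaving out any of 6 libraries.

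Further genes with small p-values in both comparisons belonged to no list. Syne1, the giant nesprin that ties the nucleus to the cytoskeleton, had 39.1, 107 and 269 CPM against 292, 404 and 541 CPM, with no overlap. Its log2 difference was -1.73 against all controls (SE 0.23, adjusted p = 2.66e-05) and -1.73 against the same-range controls (SE 0.29, adjusted p = 0.000908). Rbms3, an RNA-binding protein of mesenchyme, had 2.96, 10.5 and 49.3 CPM against 31.1, 91.4 and 140 CPM (log2 difference -2.64, SE 0.36, adjusted p = 2.84e-05). Galk2, a kinase of N-acetylgalactosamine, had 3.2, 5.92 and 19 CPM against 18.6, 24 and 26.6 CPM (log2 difference -1.62, SE 0.20, adjusted p = 3.52e-06). In both of these only Pbrm1-fl replicate 1 reached the range of the controls.

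Ric3, a chaperone of acetylcholine receptors, had 14.3, 20.1 and 27.1 CPM against 29.2, 39.2 and 82.5 CPM without overlap (log2 difference -1.09, SE 0.15, adjusted p = 3.67e-05). Map7d3, a microtubule-binding protein, had medians of 0.915 and 13.2 CPM (log2 difference -2.98, SE 0.42, adjusted p = 4.02e-05), and Kctd12b, a relative of the auxiliary subunits of GABA-B receptors, had 4.71 and 26.2 CPM (log2 difference -2.75, SE 0.39, adjusted p = 4.02e-05). All 5 genes named after Syne1 passed against the same-range controls, with log2 differences of -2.84 (SE 0.43) for Rbms3, -1.65 (SE 0.25) for Galk2, -0.93 (SE 0.18) for Ric3, -2.93 (SE 0.50) for Map7d3 and -2.99 (SE 0.45) for Kctd12b. None of these calls ended on leaving out a library. In a fit of only the libraries compared, Ric3 kept its same-range call. Syne1, Rbms3, Galk2, Map7d3 and Kctd12b did not, with adjusted p-values of 0.081, 0.0835, 0.105, 0.127 and 0.0725. Without Pbrm1-fl replicate 1 the differences against all controls were -3.25 for Rbms3 and -3.78 for Map7d3.

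**Figure D5:**
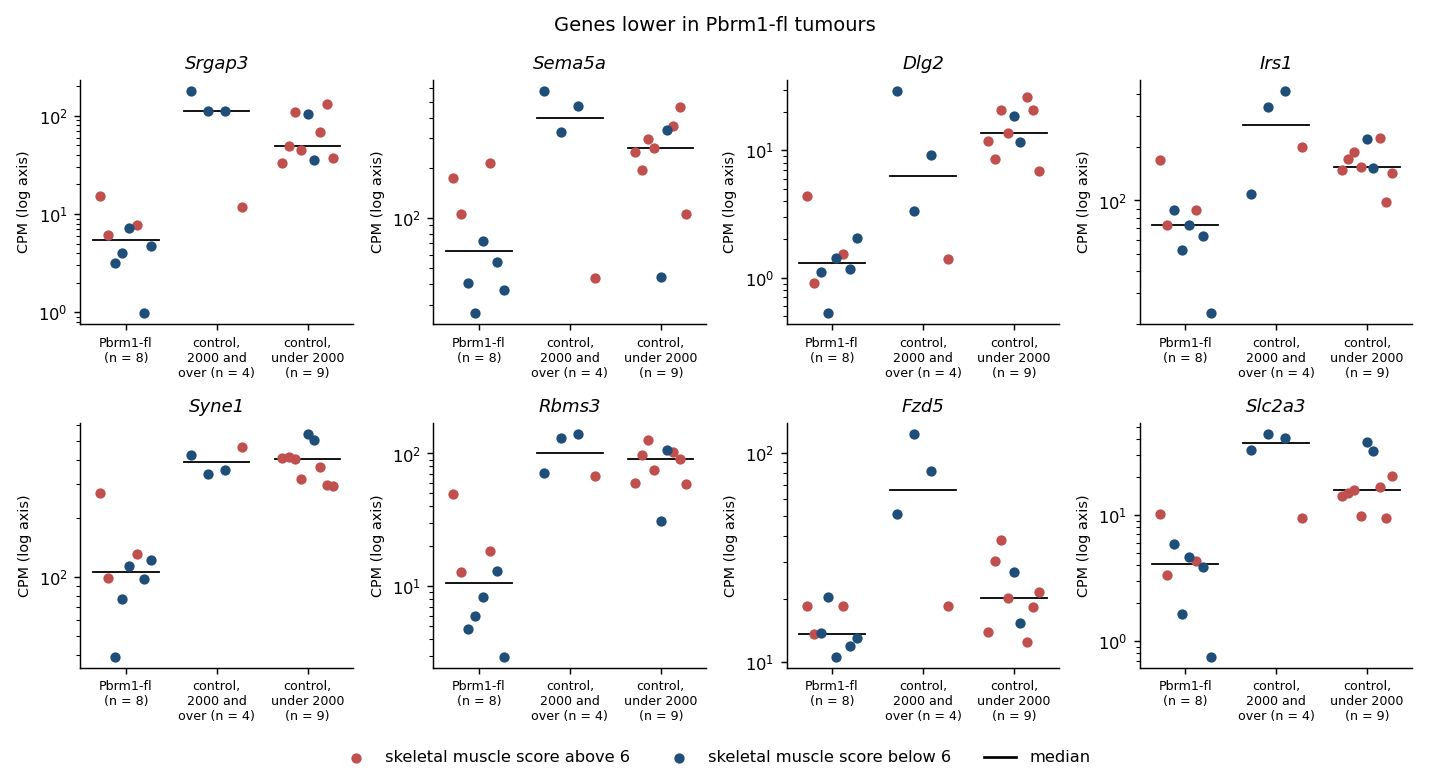
Levels (CPM, log axes) of 8 genes lower in Pbrm1-fl tumours, namely Srgap3, Sema5a, Dlg2, Irs1, Syne1, Rbms3, Fzd5 and Slc2a3, in the 8 Pbrm1-fl tumours, the 4 controls numbered 2000 or over and the 9 other controls, with medians as lines and colour showing a skeletal muscle score above or below 6. For Syne1 the highest Pbrm1-fl value of 269 CPM lies below the lowest control at 292 CPM. For Fzd5 the muscle-rich control of the same range lies within the range of the Pbrm1-fl tumours. For Srgap3 this control, at 11.8 CPM, lies below Pbrm1-fl replicate 1 at 15.1 CPM and above all other Pbrm1-fl tumours.

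A further 3 lower genes, each known for a tie to dystrophin or its relatives, were picked after their values were seen, and no list of that complex was counted. Dtna, or dystrobrevin alpha, had 0.799, 13.6 and 37.4 CPM against 51.3, 82.7 and 116 CPM (log2 difference -2.45, SE 0.45, adjusted p = 0.00079), and Sspn, or sarcospan, had 7.38, 18.6 and 50.7 CPM against 54.3, 64.5 and 149 CPM (log2 difference -1.70, SE 0.30, adjusted p = 0.000586). Neither gene showed overlap between the groups. Drp2, dystrophin-related protein, had 1.65, 5.01 and 31.6 CPM against 25.2, 38.3 and 146 CPM with 7 of 8 below every control (log2 difference -2.67, SE 0.47, adjusted p = 0.000546, with a log2 difference of -3.44 without Pbrm1-fl replicate 1). Their log2 differences against the same-range controls were -2.57 (SE 0.54), -1.59 (SE 0.38) and -3.20 (SE 0.55), and in muscle-poor libraries alone -3.97, -2.68 and -4.67. The call of Sspn against the same-range controls ended without control replicate 1 (adjusted p = 0.0518). In a fit of only the libraries compared, the same-range calls of Dtna, Sspn and Drp2 did not hold (adjusted p = 0.177, 0.167 and 0.1).

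Of 15 genes of laminins and basement membrane 2 were lower and none higher. Among them Lama1, a chain of the embryonic laminin, had medians of 3.03 and 6.83 CPM (log2 difference -1.94, SE 0.53, adjusted p = 0.0208). Control replicate 1 held its highest value, 47 CPM, and without it Lama1 did not pass against the same-range controls (adjusted p = 0.124). Matrix glycoproteins gave 3 higher and 4 lower of 33, among them Sparcl1 with medians of 97.3 and 262 CPM (log2 difference -1.24, SE 0.27, adjusted p = 0.00402) and Matn2, a matrilin, with 25.2 and 105 CPM (log2 difference -2.57, SE 0.53, adjusted p = 0.00222). The lower count fell to 2 without Pbrm1-fl replicate 3, 4, 6 or 8 or control replicate 7 or 11. Sparcl1 also passed against the same-range controls (adjusted p = 0.0214), except without control replicate 3, and Matn2 did not (adjusted p = 0.165).

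Another 3 lower genes, picked after their values were seen, are known from motile cilia, of which no list was counted. Nme5, a radial spoke component, had 0, 0.205 and 0.658 CPM against 0.576, 1.75 and 4.66 CPM (log2 difference -2.86, SE 0.45, adjusted p = 0.000159), and it also passed against the same-range controls (-2.90, SE 0.52, adjusted p = 0.00148, with a log2 difference of -1.99 without control replicate 1). Rsph4a, of the radial spoke head, was at 0 to 0.0669 CPM in Pbrm1-fl tumours and at 0.122 to 1.88 CPM in controls, without overlap (adjusted p = 0.00105, and adjusted p = 0.0267 against the same-range controls, ending without control replicate 1, 2 or 3), at a depth where its ratio rests on very few reads. Cfap70, of the axonemal dynein arm, had medians of 0.226 and 0.78 CPM (log2 difference -2.02, SE 0.55, adjusted p = 0.0213, with a log2 difference of -2.64 without Pbrm1-fl replicate 5), and its same-range call ended on leaving out any of 5 libraries, up to an adjusted p of 0.638 without control replicate 1. All 3 were at low levels in every library. Of the Cfap family 3 genes were lower and 1 higher of 19 (21.1% called), and of the Dnah family 2 were lower of 13 (15.4%). These shares are read against the 7.35% of all tested genes. In the same-range comparison 3 Cfap genes and no Dnah gene were lower. Dnah1, among the called Dnah genes, lies within 2 Mb of Pbrm1.

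Some lower genes lay side by side. Around Ank2, which encodes the membrane anchor ankyrin-B, 12 of 13 tested genes in an interval of chromosome 3 from 126921612 to 127499350 were lower in both comparisons, but only Ank2 is protein-coding, and reads of overlapping noncoding genes cannot be told apart from its own, since the strand setting of the counting is not given in the sources used here. Ank2 had 4.96, 9.93 and 42.5 CPM against 9.93, 69.7 and 156 CPM (log2 difference -2.26, SE 0.48, adjusted p = 0.00304, and -2.40 against the same-range controls, SE 0.58, adjusted p = 0.0204, ending without control replicate 1 or 3).

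The kinases Mapk10 and Prkcb were also lower, and no list of kinases was counted. Mapk10, the neuronal JNK, had 0, 0.423 and 1.66 CPM against 1.46, 15.6 and 76.6 CPM with 7 of 8 below every control (log2 difference -5.15, SE 0.83, adjusted p = 0.000215). Prkcb, a protein kinase C, had medians of 5.94 and 25.7 CPM (log2 difference -2.15, SE 0.53, adjusted p = 0.0098). Both passed against the same-range controls, with log2 differences of -5.94 (SE 0.90) and -2.83 (SE 0.62), for Prkcb except without control replicate 3 (adjusted p = 0.115). These kinases, like Ank2, were picked after their values were seen. In all, 16 intervals held at least 3 neighbouring genes called in both comparisons in 1 direction, 14 of them lower.

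Genes of innate immunity and cell death changed in both directions. In the list of inflammasome, CARD and NF-kappaB genes 3 of 40 were higher (Nlrx1, Relb, Nfkb2) and 4 lower (Card6, Pycard, Ripk2, Il18). Pycard, the inflammasome adaptor, had 0.753, 2.64 and 6.72 CPM against 3.5, 8.49 and 12.6 CPM (log2 difference -1.42, SE 0.30, adjusted p = 0.00252), and Ripk2, a kinase below the NOD receptors, had 7.26, 9.51 and 11.5 CPM against 9.62, 11.8 and 17.7 CPM (log2 difference -0.44, SE 0.10, adjusted p = 0.00687). Relb, of the noncanonical NF-kappaB pathway, had medians of 43.6 and 23 CPM (log2 difference 0.70, SE 0.19, adjusted p = 0.0216). None of these 3 passed against the same-range controls (adjusted p = 0.0679, 0.155 and 0.353). Of 23 complement genes 2 were called (8.7%, beside 7.35% of all tested genes), both lower. They were Cd59b and Cd59a, neighbouring copies of the inhibitor of the membrane attack complex, whose reads may be split between them. Cd59a had medians of 3.67 and 12.9 CPM (log2 difference -1.60, SE 0.37, adjusted p = 0.00688, and adjusted p = 0.0566 against the same-range controls).

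In the BCL2 family, 3 of 21 genes were higher (Bad, Bbc3, Bak1), and Bcl2l11, which encodes the death-promoting protein BIM, was lower. Bcl2l11 had 43.8, 57.2 and 95.7 CPM against 65.1, 108 and 166 CPM with 6 of 8 below every control (log2 difference -0.88, SE 0.20, adjusted p = 0.00636, and -1.07 against the same-range controls, SE 0.27, adjusted p = 0.0238, ending without control replicate 2 or 3). The higher calls ranged from 0 to 4 when a library was left out, with 0 without Pbrm1-fl replicate 3 or 8 or control replicate 9 or 11. Of 24 immediate-early genes, which respond to handling and to growth factors, Jun and Btg2 were lower. The called share of this list was 8.33%, beside 7.35% of all tested genes. Jun had medians of 22.1 and 93.8 CPM (log2 difference -1.87, SE 0.47, adjusted p = 0.0113, and -1.14 in muscle-poor libraries, adjusted p = 0.305).

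Grouped by name instead, 15 of 196 families with at least 10 tested genes had a share of calls of at least 22%. This limit is 3 times the 7.35% of all tested genes. Besides the Bmp (4 of 10, with Bmp2k, which is a kinase), Fzd (3 of 10), Psmb (3 of 10), Wnt (4 of 17), Tbx (3 of 12), Scn (3 of 11) and Pex (4 of 17) genes already described, these included cyclic nucleotide phosphodiesterases (Pde, 5 higher and 1 lower of 21), gamma-A protocadherins (Pcdhga, 3 lower of 12) and POU factors (2 higher and 1 lower of 11). Zinc finger genes named Zfp, the largest family, had 5 higher and 24 lower of 369 (7.86% called). In the same-range comparison fewer were called. There, Pde genes had 0 higher and 1 lower, Pcdhga genes had no call, and POU factors had 1 higher and 0 lower. Zfp genes had 1 higher and 7 lower. The Pex count includes Pex5l, which is not in the peroxisome list. Collagens named Col had no call in 40. Names beginning with Sox gave 4 lower of 20 (Sox2ot, Sox11, Sox14, Sox6), of which Sox2ot is a noncoding transcript and not a SOX factor. Only 1 of these 20 was lower in the same-range comparison.

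By gene type, the 14928 protein-coding genes held 586 higher and 588 lower calls against all controls but 85 higher and 286 lower ones against the same-range controls. Other types are read against the 3.4% higher and 3.95% lower of all tested genes. The 1453 unconfirmed transcripts of the TEC class had 32 higher (2.2%) and 84 lower (5.78%) against all controls. The 226 sense intronic transcripts had 1 higher (0.442%) and 12 lower (5.31%). The 770 processed pseudogenes had 3 higher (0.39%) and 17 lower (2.21%), so both shares were under those of all tested genes. Against the same-range controls the higher and lower calls were 11 and 29, 1 and 3, and 1 and 4 in this order. Reads of these types can come from their host or parent genes.

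The genes beside Pbrm1 were examined separately because a floxed allele is inherited with its flanks. Of 59 tested genes within 2 Mb of Pbrm1 on chromosome 14, 6 were called against all controls, to be read against the 7.35% of all tested genes, and 5 of them were protein-coding out of 50 (Dnah1, Vstm4, Lrrc18, Slc18a3, Cacna2d3). Cacna2d3, a calcium channel subunit, had 206, 236 and 363 CPM against 77.4, 156 and 200 CPM without overlap (log2 difference 0.81, SE 0.18, adjusted p = 0.00344). Slc18a3, the vesicular acetylcholine transporter, had medians of 0.979 and 0.141 CPM (log2 difference 2.51, SE 0.59, adjusted p = 0.00684). Against the same-range controls their adjusted p-values were 0.106 and 0.139, and a part of the flanking allele was not tested.

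Whether the changes were particular to Pbrm1 was asked by subtracting the effects of the other floxed genes, each against controls of its own number range. The Pbrm1-fl effect differed from the Arid1a-fl effect in 436 genes (2.17%) and from the Arid1b-fl effect in 55 genes (0.274%). Among genes described above, the difference passed against both for Srgap3 (-4.07, SE 0.72, adjusted p = 0.00445, and -3.85, SE 0.76, adjusted p = 0.0253), Rbms3 (-2.96 and -2.95), Galk2 (-1.79 and -1.74), Kctd12b (-2.51 and -3.19) and Wnt5b (-2.16 and -2.05). It also passed against both for Hand1, at adjusted p-values of 0.013 and 0.0346. The difference from the Arid1a-fl effect alone passed for Twist1 (1.65), Pax9 (6.88), Satb1 (3.32), Tap2 (1.27), H2-Q4 (2.65), Ifih1 (2.53), Irs1 (-2.37) and Slc2a3 (-3.42), where adjusted p-values against the Arid1b-fl effect ran from 0.0608 to 0.381. For Msx1 the differences of 1.04 and 1.66 had adjusted p-values of 0.363 and 0.337, and for Bmp7 those of 0.41 and 0.85 had 0.497 and 0.332, so a difference between the floxed genes was not detected there.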

How the data were processed

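RNA was measured by sequencing in frozen tumours, and the authors deposited raw counts per gene for the 37 libraries of the SS18::SSX2 background. The submitters' processing notes name STAR 2.7.11, featureCounts 1.6.3 and the build mm10, while the annotation release, strand setting and treatment of multimapping reads are not given in the sources used here. Symbols and positions came from GENCODE M21 (GRCm38), which held 52125 of 56980 identifiers (91.5%), and 2147 identifiers were newer than that release. Reads on unmatched identifiers stayed in the library totals.

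Counts were fitted with edgeR 4.0.16 (R 4.3.3, limma 3.58.1), using TMM scaling, filterByExpr on the groups and the robust quasi-likelihood test with Benjamini-Hochberg adjustment at 0.05. All 37 libraries entered the fit, and for the same-range comparison controls were split by mouse number at 1000 and 2000. The number range may be a batch, but the labels do not say so. CPM used TMM-scaled totals. The procedure was tested on simulated data. Alternatives were DESeq2 1.42.0, other scaling, filters, covariates and sample sets, and leaving out each library. The repeat in libraries with a muscle score under 6 was added after seeing the data.

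Named genes were Pbrm1, up to 4 called members per list and direction, up to 12 genes per direction with the smallest adjusted p among those called in both comparisons with an absolute log2 difference of at least 1 and a mean of at least 1 CPM, up to 3 called members per family, and called protein-coding genes within 2 Mb of Pbrm1. Where genes lie outside this rule (Psme1, Psme2, Dlx4, Tfap2c, Arid2, Brd7, Phf10, Dtna, Sspn, Drp2, Nme5, Rsph4a, Cfap70, Mapk10, Prkcb and Ank2), they were chosen after their values were seen. The comparison, the members and the lists were chosen with earlier results of these data known. Some genes are not reported here.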

Additional observations from a re-analysis of the deposited data

Results flagged for a closer look

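In the 96 genes given with values, the 8 Pbrm1-fl libraries and the 4 same-range controls were each searched for a library far from the rest of its group by Dixon's test. Such a library was found in 38 of 192 groups of values, and in each case it was the highest. The limits used give about 1 in 20 by chance for normally distributed values. CPM need not be so distributed, so no excess over chance can be read from this count. Pbrm1-fl replicate 1 accounted for 14 of them. It was highest at 139 CPM for Pbrm1, 170 CPM for Irs1, 14 CPM for Mgst1, 83 CPM for Ctsk, 4.38 CPM for Dlg2, 4.77 CPM for Scn2b, 269 CPM for Syne1, 49.3 CPM for Rbms3 and 19 CPM for Galk2. It was also highest at 7.4 CPM for Map7d3, 15.7 CPM for Kctd12b, 27.4 CPM for Prkcb, 42.5 CPM for Ank2 and 31.6 CPM for Drp2. Pbrm1-fl replicate 3 stood apart for Bmp4 (572 CPM), Igf2bp1 (53.4 CPM), Efnb2 (592 CPM) and Notch2 (1781 CPM). Single genes stood apart in other Pbrm1-fl libraries, namely Twist1 in replicate 8 (520 CPM), Barx1 in replicate 2 (77.4 CPM), Igfbp4 in replicate 4 (3679 CPM), Dcc in replicate 7 (1.1 CPM) and Cfap70 in replicate 5 (1.08 CPM).

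Among the same-range controls, the muscle-rich replicate 4 stood apart for Twist1 (127 CPM), Hand1 (0.0608 CPM), Dkk2 (42 CPM), Igf2bp3 (2.37 CPM), Igfbp4 (598 CPM), Efnb2 (237 CPM), H2-Q4 (108 CPM) and Psmb8 (19.3 CPM). Control replicate 1 did so for Gss (35.8 CPM), Dcc (12.4 CPM), Scn3b (11.2 CPM), Nme5 (4.66 CPM) and Cfap70 (5.78 CPM), and control replicate 3 for Chrdl1 (263 CPM) and Gria1 (691 CPM).

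The Pbrm1-fl effect differed from that of another floxed gene for the following genes, by the contrast of the 2 effects in the edgeR fit, with values on the log2 scale. Against both the Arid1a-fl and the Arid1b-fl effect, in this order, it differed for Pbrm1 (-1.29 and -1.16), Wnt5b (-2.16 and -2.05), Srgap3 (-4.07 and -3.85), Rbms3 (-2.96 and -2.95), Galk2 (-1.79 and -1.74) and Kctd12b (-2.51 and -3.19). The same held for Hand1 (10.59 and 8.24), whose fitted values depend on the prior count. Against the Arid1a-fl effect alone it was higher for Twist1 (1.65), Tbr1 (3.86), Pax9 (6.88), Satb1 (3.32), Dlx4 (4.03), Tap2 (1.27), H2-Q4 (2.65), Ifih1 (2.53), Nlrx1 (0.90) and Pax3 (1.51). It was lower for Irs1 (-2.37), Nqo1 (-1.80), Slc2a3 (-3.42), Dlg2 (-2.96), Scn2b (-4.22) and Nme5 (-2.95). Against the Arid1b-fl effect alone it was lower for Mapk10 (-6.06).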

How the results depend on the processing

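No alternative reversed a direction. With DESeq2 the counts were 2259 against all controls, 955 against the same-range controls and 716 in both, and at an adjusted p under 0.01 they were 503, 133 and 97. A fit of only the libraries compared gave 46 same-range calls and 39 in both, with less residual information, and 1009 against all controls. Leaving out single libraries gave 1044 to 1920, 178 to 1054 and 158 to 549. The share of higher genes among the calls against all controls was 46.3%, and it was 31.6% in muscle-poor libraries. Of 92 called genes given with values, 58 kept direction and threshold against all controls in every alternative. The study describes littermates as controls, but the labels name no litters, so no paired analysis was made. Replicate numbers were given in accession order and pair no mice. The limits are that 4 same-range controls decide that comparison, that muscle RNA varied between tumours, and that genes under 1 CPM rest on few reads.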
